A study of Caenorhabditis elegans with 2 samples.

Results

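The zinc finger protein ZTF-3 of Caenorhabditis elegans was mapped on the genome by ChIP-seq, in which an antibody pulls down a protein with the DNA it is bound to and that DNA is sequenced. The strongest signals lay beside 4 protein-coding genes, ppfr-1, spat-3, mvk-1 and sto-4, out of 19973 protein-coding genes on the 6 nuclear chromosomes. They were chosen by measured values, as the genes nearest the 5 summits of highest pooled signal among 534 thresholded regions, and because those summits lie at long dinucleotide repeats. The signal of these summits is therefore given as a description, without a test.

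The only group comprised 2 samples, labelled biological replicates 4 and 5, of whole young adults 58 h old with both sexes pooled, synchronised as starved L1 larvae after bleaching. All animals came from strain OP614, which has the unc-119(tm4063) mutation and the integrated transgene wgIs614 carrying ztf-3::TY1::EGFP::3xFLAG and a rescuing unc-119(+). The tags, at the C-terminus of the protein, were read with an anti-GFP antibody. The tagged protein came from the transgene, and whole worms mix all cell types, so no signal can be placed in a tissue. Both replicates were compared with the same 1 control, and no untagged strain was analysed here, so whether the signal at these genes depends on the tagged protein was not tested. Each replicate has a list of 30000 candidate regions, a pooled list holds another 30000, and the thresholded list is the pooled regions that passed the authors' test of reproducibility (1.78% of the pooled list). No list gives read counts, so the depth behind each value is unknown. The signal of a region is the authors' own strength score against the control, and its scale differs between lists, with medians of 28.0 in the pooled list, 22.6 in replicate 4 and 9.86 in replicate 5. Signals are therefore also given as multiples of the median of their own list.

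The 4 genes have unrelated roles. ppfr-1 encodes a regulatory subunit of protein phosphatase 4, a serine/threonine phosphatase that acts in meiosis and at centrosomes. spat-3 encodes a RING finger protein that acts as a histone ubiquitin ligase of the Polycomb type, a class of chromatin regulators that keep developmental genes silent. mvk-1 encodes mevalonate kinase, an early enzyme of the pathway that makes the isoprene units of ubiquinone, dolichol and prenylated proteins. sto-4 encodes a protein of the stomatin family, membrane proteins that in worms include regulators of ion channels in touch neurons and motor circuits. What they share in these data is a perfect run of alternating G and T on one DNA strand, which is a run of alternating C and A on the other (a GT/CA run), at or beside the gene.

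The runs at spat-3, mvk-1 and sto-4 are given with 40 bp on either side, because the strongest pooled summit of each gene falls on them. The same holds for the ppfr-1 run, which is not printed here. A run of like length near R10E8.3, which had no candidate region in any list, follows for comparison. Sequences are from the RefSeq copy of assembly WBcel235, the same sequence as ce11, on the plus strand. Capitals mark the perfect run. The printed stretches are X:4606469-4606700 (run of 152 bp), III:6133422-6133662 (161 bp), X:11643914-11644166 (173 bp) and V:18233442-18233666 (145 bp).
spat-3: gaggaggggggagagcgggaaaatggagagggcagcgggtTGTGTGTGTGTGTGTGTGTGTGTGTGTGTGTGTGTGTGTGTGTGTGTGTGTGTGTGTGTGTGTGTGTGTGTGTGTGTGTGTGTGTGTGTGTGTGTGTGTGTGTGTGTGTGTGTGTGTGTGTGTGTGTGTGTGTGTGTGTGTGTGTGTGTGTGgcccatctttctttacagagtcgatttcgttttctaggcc
mvk-1: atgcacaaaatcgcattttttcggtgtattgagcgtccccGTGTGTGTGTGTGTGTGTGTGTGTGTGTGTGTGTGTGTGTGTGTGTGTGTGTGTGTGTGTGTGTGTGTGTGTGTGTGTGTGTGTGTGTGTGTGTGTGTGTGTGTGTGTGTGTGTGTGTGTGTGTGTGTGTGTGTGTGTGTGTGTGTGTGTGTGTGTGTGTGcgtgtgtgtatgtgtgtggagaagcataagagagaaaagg
sto-4: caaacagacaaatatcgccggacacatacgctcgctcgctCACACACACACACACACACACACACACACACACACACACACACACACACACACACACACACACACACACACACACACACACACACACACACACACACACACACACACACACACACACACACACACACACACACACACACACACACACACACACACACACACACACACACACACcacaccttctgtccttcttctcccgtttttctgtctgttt
R10E8.3: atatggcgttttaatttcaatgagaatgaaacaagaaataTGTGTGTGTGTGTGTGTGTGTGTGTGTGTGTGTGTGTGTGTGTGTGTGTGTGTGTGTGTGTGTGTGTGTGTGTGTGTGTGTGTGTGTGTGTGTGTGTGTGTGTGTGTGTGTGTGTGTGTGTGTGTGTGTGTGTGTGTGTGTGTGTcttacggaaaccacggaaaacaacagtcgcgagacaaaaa
At spat-3 the flank before the run is rich in G and A. At mvk-1 the run is followed by a further short, interrupted stretch of G and T, and at sto-4 the flank after the run is rich in C and T.

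The summit at ppfr-1 had a signal of 1860 in the pooled list, 1332 in replicate 4 and 532 in replicate 5, which was 66.5, 59.0 and 53.9 times the median of the respective list. It was rank 1 in all 3 lists. The stronger summit at spat-3 had 996, 744 and 256, or 35.6, 33.0 and 26.0 times the median, at ranks 2, 2 and 3. The signal at both genes was thus far above the other members in each replicate.

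The summit at mvk-1 had signals of 460, 344 and 117 in the pooled list, replicate 4 and replicate 5, or 16.4, 15.2 and 11.9 times the median, at ranks 3, 3 and 4. That at sto-4 had 427, 325 and 102, or 15.3, 14.4 and 10.4 times the median, at ranks 4, 4 and 5. Both replicates gave the order ppfr-1, spat-3, mvk-1, sto-4. The ranges of the multiples over the replicates overlapped for mvk-1 and sto-4, although mvk-1 was the higher in each, and replicate 5 gave the lower multiple for every member. The ranges of ppfr-1 and spat-3 overlapped with no other member. The weaker summit at spat-3 had a signal of 397 at rank 5 of the pooled list and of 196 at rank 11 in replicate 4 (8.70 times the median), and replicate 5 listed no second summit there. Rank 2 of replicate 5 was instead a second summit at ppfr-1, with a signal of 424 (43.0 times the median).

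**Figure D1:**
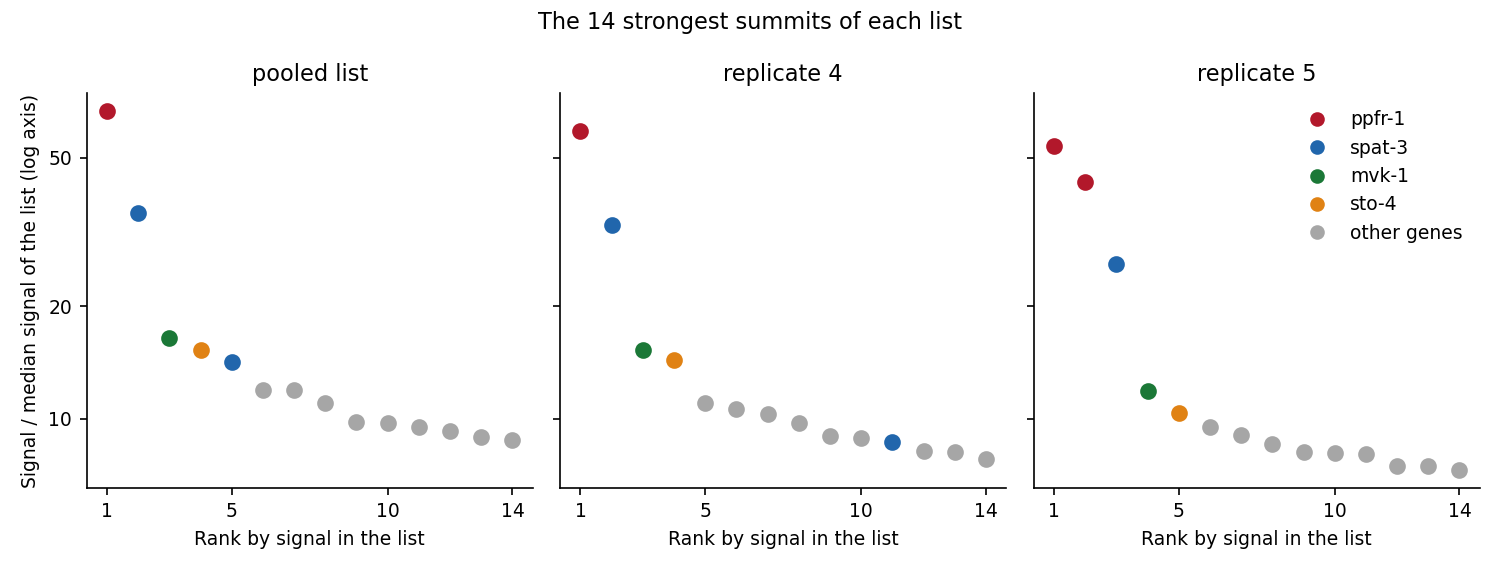
Signal of the 14 strongest summits of the pooled list and of each replicate, as multiples of the list's median signal on a log axis, against rank; coloured points are the members and grey points other genes. The members hold ranks 1 to 5 of the pooled list and of replicate 5, and ranks 1 to 4 and 11 of replicate 4.

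The summits just inside the choice were those at sto-4 and the weaker of the pair at spat-3, at 15.3 and 14.2 times the pooled median. The first summits outside it lay nearest tasp-1 (335, 12.0 times the median) and rpl-3 (333, 11.9 times), neither with a GT/CA run of at least 20 bp within 200 bp. The −log10 q of the authors could not rank them, because all 5 stood at the highest value of the pooled list, 2.48, which 153 regions shared. The same held in the replicates, where 162 regions of replicate 4 and 140 of replicate 5 shared the highest value.

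Likeness to the members was the Euclidean distance of log2(signal / list median) from a mean over the 5 summits (4.75 in replicate 4 and 4.42 in replicate 5). In that mean each summit had the signal of the strongest replicate region holding it, so both spat-3 summits entered with the value of the stronger. The pooled summits most like the members in both replicates lay nearest tasp-1, rpl-3, cmd-1, W02H3.3 and Y17G9B.5. Their distances ran from 1.81 to 2.25, over 10516 pooled summits that lay in a region of both replicates. They were ranks 6 to 10 of the pooled list. The pooled list comes from the same replicates, so nearness in rank follows from the measure and is no separate result. None of the 5 had a GT/CA run within 200 bp.

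The summits lay close to the ends of the runs rather than at their centres. At ppfr-1 the run spans 189 bp (I:9382981-9383169), and the summits of the pooled list and replicate 4 both lay 8 bp after its first base. Replicate 5 placed a summit 10 bp after the first base and another 24 bp beyond the last base, 202 bp apart, within a single region. At spat-3 the run spans X:4606509-4606660, with the stronger summit 9 bp after its first base in the pooled list and 12 bp after it in replicate 4. The weaker summit lay 94 and 120 bp beyond the last base, on the side away from spat-3. The single summit of replicate 5 was inside the run, 15 bp before its last base, so the replicates put the strongest point of this locus at opposite ends of the repeat.

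At mvk-1 (III:6133462-6133622) the summit was 5 bp before the last base of the run in the pooled list, 1 bp beyond it in replicate 4 and 2 bp beyond it in replicate 5. At sto-4 (X:11643954-11644126) it lay 18, 19 and 26 bp before the last base in the same 3 lists. The strongest summit of each member was 5 to 18 bp from the nearer end of its run in the pooled list, 1 to 19 bp in replicate 4 and 2 to 26 bp in replicate 5. At the 8 other runs of at least 100 bp with a pooled summit this distance was 0 to 72 bp, so the ranges overlapped.

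**Figure D2:**
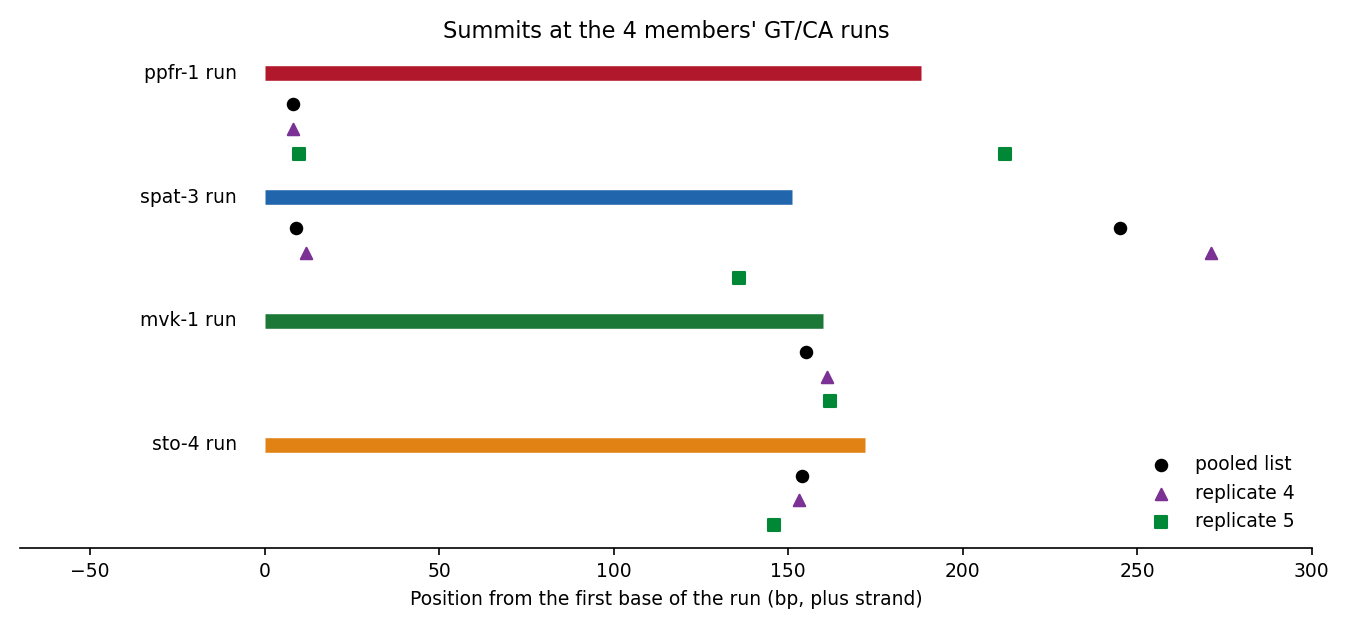
Position of every candidate summit at the 4 members' GT/CA runs, in bp from the first base of the run on the plus strand; bars are the runs, circles the pooled list, triangles replicate 4 and squares replicate 5. Most summits sit within 26 bp of a run end, and second summits lie 24 bp beyond the run at ppfr-1 and 94 and 120 bp beyond it at spat-3.

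Regions with 2 summits under the same coordinates were rare, at 4 of the 30000 entries of the pooled list (0.0133%). They formed a pair at spat-3 and a pair nearest kin-14 (signals of 114.7 and 80.6), which had no GT/CA run within 200 bp. In replicate 4 the only such pair was at spat-3, and in replicate 5 it was at ppfr-1. The summits of the pair were 236 bp apart at spat-3 in the pooled list and 259 bp apart in replicate 4, with signals differing 2.51-fold and 3.79-fold. At ppfr-1 in replicate 5 they differed 1.25-fold. Having 2 summits in separate regions within 200 bp of a GT/CA run was not particular to the members. The runs near nhr-175 and sipa-1 had 2 summits in the pooled list and in each replicate. Those near Y55B1BR.8, pcdr-1 and snt-3 had 2 in the pooled list.

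Nearly all regions of a list have the same width, but strong regions often differ from it. In the pooled list 62 of 30000 entries were not 444 bp wide (0.207%), all 5 summits of the members among them. The regions at ppfr-1 and spat-3, 662 and 555 bp wide, were 2 of only 3 pooled regions wider than 444 bp, whereas those at mvk-1 (442 bp) and sto-4 (406 bp) were narrower. Narrower regions were also found at the 5 next strongest summits, which lay in regions of 216 to 303 bp. In replicate 4 the only regions wider than 450 bp were those at ppfr-1 (658 bp) and spat-3 (538 bp), and in replicate 5 only that at ppfr-1 (560 bp). The sto-4 region of replicate 5 had the usual 450 bp.

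Every member's run read as CA on the strand of its gene. ppfr-1, spat-3 and mvk-1 are on the minus strand with GT on the plus strand, and sto-4 is on the plus strand with CA on it. Of the 34 other runs of at least 40 bp, 17 read CA on the strand of the gene with the nearest start site (50%), and of the 9 among them of at least 100 bp, 6 did (66.7%). With 4 runs no test was made of this difference.

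The RNA genes annotated at ppfr-1 and spat-3 were largely the repeats themselves. F16A11.7 is the name of 2 ncRNA genes on opposite strands at I:9382980-9383170, each reaching 1 bp beyond the run at both ends. At spat-3, T13H2.7 (X:4606507-4606661, minus strand) starts 2 bp before the run and T13H2.9 (X:4606512-4606661, plus strand) starts 3 bp inside it, and both end 1 bp beyond it. The ppfr-1 run also lies within the longer antisense gene anr-20 (I:9382458-9383548). No RNA gene matched the runs at mvk-1 and sto-4 to within 10 bp at both ends. Of the 34 other runs of at least 40 bp, 13 had such an RNA gene (38.2%).

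ppfr-1 (WBGene00008878, I:9364099-9389982, minus strand) was the longest of the 4 genes and held the most regions. The strongest summit, at I:9382989, fell in an intron of 5374 bp shared by all 4 transcripts, 6595 to 6993 bp downstream of their 4 start sites. Across the gene and 10 kb around it lay 26 pooled regions, 23 of replicate 4 and 29 of replicate 5. Their signal fell off steeply from the run, the second strongest pooled region being 10.4-fold weaker. That ratio was 8.97-fold in replicate 4 and 13.02-fold in replicate 5.

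A second site of strong signal lay in an intron of ppfr-1 outside the intron that holds the run (I:9382631-9388004). It comprised overlapping thresholded regions at I:9381525-9381884 and I:9381559-9381891, with signals of 179 and 100.02 at ranks 48 and 236, whose summits lay 1363 and 1160 bp from the run. Each replicate had a single region there, with a signal of 148 at rank 37 in replicate 4 and of 40.8 at rank 94 in replicate 5. The ncRNA gene F16A11.13 (I:9381717-9381833) lies inside both. No stretch of alternating G and T or C and A longer than 8 bp occurs in these regions, so this site is not at a GT/CA run. With the run it gave ppfr-1 3 thresholded regions, a number that 0.22% of all protein-coding genes reached within the gene and 10 kb. These 3 include the region that chose the gene, and the others overlap each other. The share was also not adjusted for gene length, so it is given as a description only.

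Introns of ppfr-1 also host microRNA genes, which encode short RNAs that repress messenger RNAs. The region I:9372864-9373307, within 500 bp of cel-mir-2, had a pooled signal of 73.2 and stood at rank 565, just below the thresholded list. The replicates differed there, with a signal of 60.3 at rank 453 in replicate 4 and of 13.8 at rank 5475 in replicate 5. The 3 pooled regions within 500 bp of cel-mir-71 were weak, with signals of 20.4 to 27.4 at ranks 15754 to 29921. Upstream of the ppfr-1 start sites, the nearest summit lay at 349 bp with a pooled signal of 43.9 (rank 3278), and the region there ranked 16954 in replicate 4 and 2056 in replicate 5.

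spat-3 (WBGene00020496, X:4596011-4605928, minus strand) had its summits outside the gene, 590 and 826 bp upstream of the start site of its longer transcript. Around it lay 9 pooled regions, 12 of replicate 4 and 9 of replicate 5. Away from the run none was strong, and the next region by signal, at a different place in each list, was 25.2-fold weaker in the pooled list, 21.4-fold in replicate 4 and 25.04-fold in replicate 5. The shorter transcript starts at X:4599989, inside the gene. A summit lay 969 bp upstream of that start at X:4600958 in all 3 lists, with signals of 38.1, 28.3 and 10.04 at ranks 5596, 7440 and 14352.

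mvk-1 (WBGene00021534, III:6124023-6136278, minus strand) has 6 transcripts from 5 start sites. The summit at III:6133617 fell in the first intron of the 4 transcripts that start between III:6136139 and III:6136278, 2522 to 2661 bp downstream of their starts. It was also 513 bp upstream of the start of transcript Y42G9A.4b.1 and 1870 bp upstream of that of Y42G9A.4c.1. The run thus lies between the upstream and the internal start sites of the gene.

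The second strongest mvk-1 region of the pooled list (III:6135246-6135689, signal 56.8, rank 1257) lay in the same intron. It had a signal of 48.1 at rank 962 in replicate 4 and of 8.12 at rank 23069 in replicate 5. A summit 95 bp upstream of the internal start at III:6131747 had a pooled signal of 42.9 (rank 3622), and there replicate 5 ranked its region higher (19.8, rank 1261) than replicate 4 (29.3, rank 6629). The weaker regions of this locus therefore did not stand in the same order in both replicates. The run was 8.09-fold above the next region in the pooled list, 7.15-fold in replicate 4 and 5.92-fold in replicate 5.

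sto-4 (WBGene00006066, X:11644126-11647425, plus strand) has its run directly at the start of the gene. The first base of transcript Y71H9A.3.1, X:11644126, is the last base of the run, and Y71H9A.3.2 starts at X:11644172. The summit lay 18 bp upstream of the first start in the pooled list. The ncRNA gene Y71H9A.9 (X:11643830-11643892, minus strand) lay 216 bp from the summit and does not overlap the run.

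Within sto-4, an exonic summit at X:11645940 lay within 500 bp of a tRNA gene (WBGene00014504, X:11645683-11645755) and of the ncRNA gene T04F8.15. Its region had a pooled signal of 45.5 at rank 2866, the second strongest of this locus and 9.38-fold below the run. Replicate 4 gave it a signal of 48.2 at rank 952. In replicate 5 the region that covers the tRNA gene had another summit, at X:11645633, with a signal of 9.01 at rank 18520. It ended at X:11645857, so of the replicates only replicate 4 had a region over the exonic summit. The second strongest region of replicate 5 was instead upstream of sto-4 at X:11639077-11639526, with a signal of 16.01 at rank 3057.

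**Figure D3:**
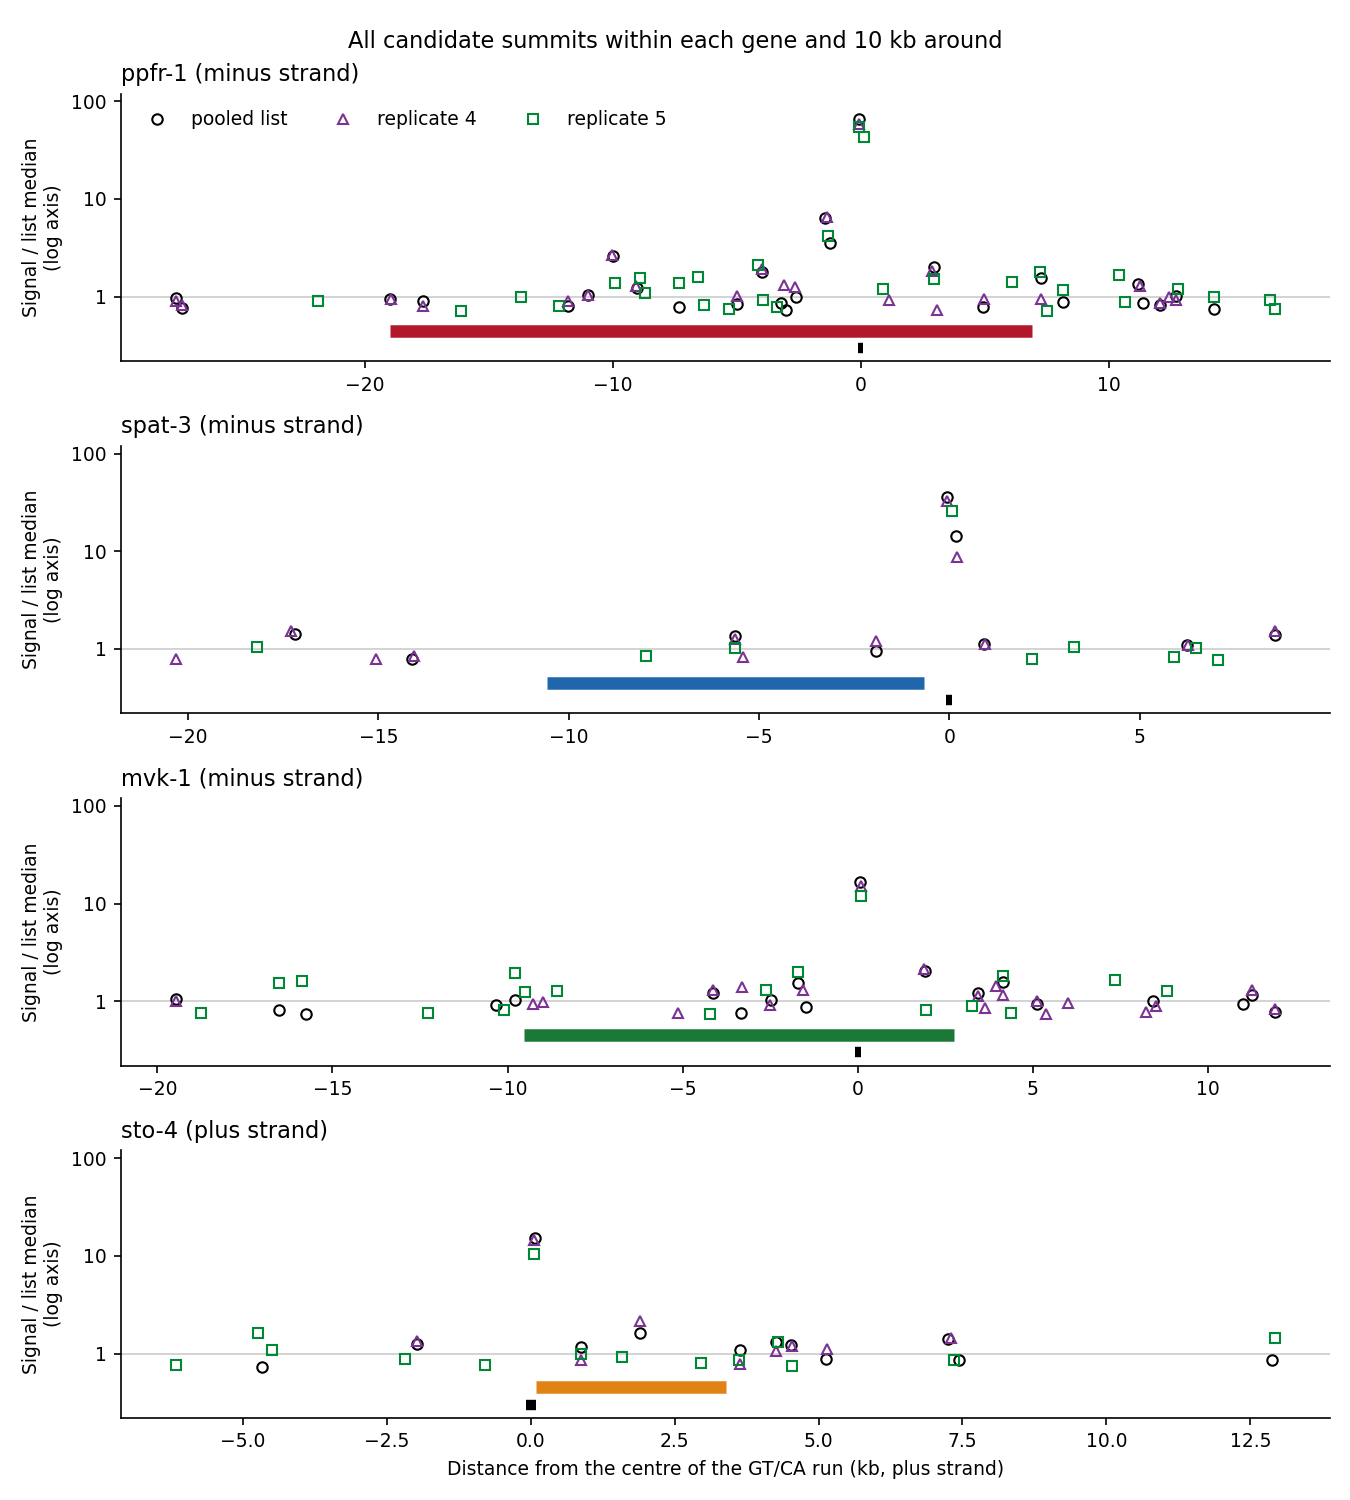
Every candidate summit within each gene and 10 kb around, as signal over the list's median on a log axis, against distance in kb from the centre of the GT/CA run; circles are the pooled list, triangles replicate 4 and squares replicate 5, the coloured bar is the gene and the black bar the run. The run carries the strongest summits of each locus in all 3 lists, and ppfr-1 alone has a second site above 3 times the median.

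Taking the 4 genes with 10 kb on either side, 66 pooled regions, 65 of replicate 4 and 70 of replicate 5 were listed. Beyond the 5 summits, 2 were in the thresholded list, both at the second site of ppfr-1. The density of pooled regions was 5.67 per 10 kb at ppfr-1, 3.01 at spat-3, 5.89 at mvk-1 and 5.15 at sto-4. The median over all protein-coding genes was 2.90, with 5th and 95th percentiles of 0.831 and 6.06. In the pooled list all 4 genes lay inside that range, and 7.36%, 47.8%, 5.84% and 11.4% of genes were as dense or denser, in the same order. In the replicates 3 values passed the 95th percentile, those of mvk-1 in replicate 4 (6.51 against 5.92) and of ppfr-1 and sto-4 in replicate 5 (6.32 and 6.01 against 5.87). Of the 61 other pooled summits in these loci, 23 (37.7%) lay in a region of both replicates, against 35.1% of all pooled summits. The loci differed, with 9 of 25 at ppfr-1, 1 of 7 at spat-3 (14.3%), 6 of 18 at mvk-1 and 7 of 11 at sto-4 (63.6%).

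A GT/CA run of at least 20 bp lay within 200 bp of 152 of the 30000 pooled summits (0.507%). The genome holds 38 such runs of at least 40 bp, and those of the members, at 152 to 189 bp, stood at places 3, 5, 6 and 7 by length. The longest, of 224 bp (V:13868874-13869097, nearest nhr-175), had a pooled signal of only 52.0 at rank 1733. The next, of 199 bp (II:4130265-4130463, nearest ast-1), had 110 at rank 162, and a run of 179 bp (X:14229483-14229661, nearest cyp-13B2) had 78.5 at rank 451. Length alone therefore did not order the runs by signal.

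Among the shorter of the 9 other runs of at least 100 bp, that of 149 bp near nhr-104 (IV:4784837-4784985) had a pooled signal of 36.3. The run printed above near R10E8.3 had no region in any list. Signals were 102 near Y55B1BR.8 (127 bp, rank 217), 46.2 near lgc-38 (116 bp), 26.7 near F54B11.11 (114 bp) and 95.8 near pcdr-1 (112 bp, rank 260). The 8 that had a pooled summit stood at 0.956 to 3.93 times the median, against 15.3 to 66.5 times for the members, and 4 of the 9 were in the thresholded list. Over all 34 other runs of at least 40 bp, 12 had a thresholded summit (35.3%), and the strongest was the 71 bp run near sipa-1, at a signal of 241 (rank 16).

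Across the 32 runs with a pooled summit, Spearman's rho between run length and pooled signal was 0.210, and across the 28 that are not members' it was -0.103. With the G+C content of the 200 bp on either side the values were 0.443 and 0.267. These are descriptions across sites that share the same libraries and control. The flanks of the members' runs held 44.0 to 50.5% G+C, against 28.0 to 45.8% (median 39.0%) for the 9 other runs of at least 100 bp, so the ranges overlapped. Whether base composition has a part in the signal was not tested.

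All stretches of 36 bases in the 200 bp on either side of the members' runs occurred once in the genome, and the same held for the 9 other runs of at least 100 bp. None of the 36-base stretches inside any of these runs occurred once. Among the shorter runs the flanks were less unique at 6, with the lowest shares, 30.3% near F58F9.1 and 74.8% near rep-1, at runs that had no region in any list. The others were 93.6% near Y65B4BL.3 (pooled rank 18940), 95.8% near F32D1.11 (8717), 97.6% near Y47G6A.33 (156) and 98.5% near snt-3 (823). Of the 5 runs of at least 40 bp without a region in any list, those near R10E8.3, galt-1 and lir-1 had 100% unique flanks. The length of the reads is not given in the sources used here, and whether the placing of reads has a part in the signal was not tested.

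**Figure D4:**
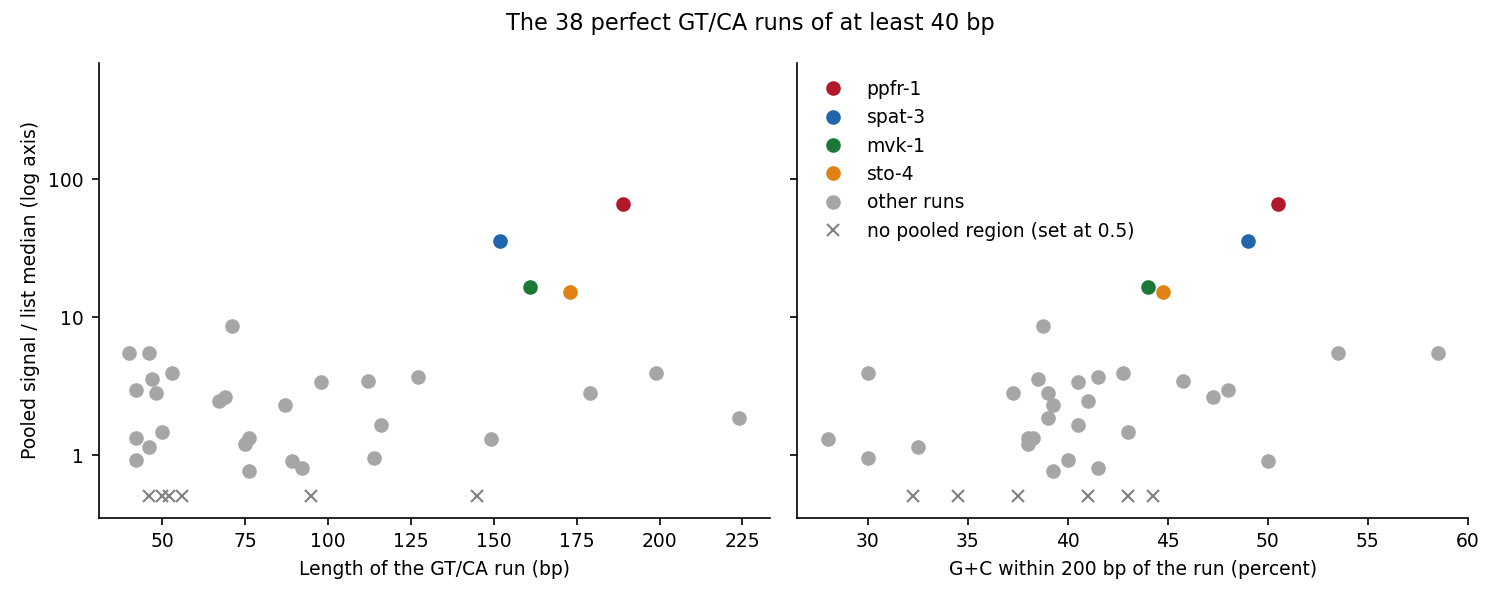
Pooled signal over the list's median, on a log axis, of the strongest summit within 200 bp of each of the 38 perfect GT/CA runs of at least 40 bp, against the run's length in bp (left) and the G+C percentage of its flanks (right); coloured points are the members, grey points the other runs, and crosses the 6 runs without a pooled region, drawn at an arbitrary height. The members lie between 15.3 and 66.5 times the median at 152 to 189 bp, while longer runs reach 3.93 times at most.

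Genes that work with the members, or belong to their families, were looked at in the same way. Of 26 such genes, 4 had a thresholded region within the gene and 10 kb (15.4%), against 11% of all protein-coding genes, which is near the background. The region counted for sto-6 is that of the sto-4 run, by which sto-4 was chosen. Among the 5 other genes of the protein phosphatase 4 complex only smk-1, a regulatory subunit known for its role in worm lifespan, had a thresholded region. That region had a signal of 75.2 at rank 523 and lay nearest the start of vps-60. pph-4.1, a catalytic subunit, had a strongest signal of 34.1 (rank 8237). For pph-4.2 of the same complex it was 46.5 (rank 2627), at a summit 6823 bp from the gene and nearest the start of another gene.

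Of the 7 other Polycomb-like genes, sor-1, which represses Hox genes in worms, had a thresholded region 592 bp upstream of its start (III:8417354-8417797). Its signal was 132 in the pooled list, 117 in replicate 4 and 27.4 in replicate 5, at ranks 103, 67 and 348, and a GT/CA run of 24 bp lay within 200 bp of it. mig-32, which encodes the partner of spat-3 in histone ubiquitination, had none. The strongest signal in its window was 59.4 at rank 1092, at a summit 2617 bp from the gene and nearest the start of another gene. None of the 5 other mevalonate and prenyl chain genes had one. In the window of hmgr-1, which encodes HMG-CoA reductase, the strongest signal was 45.1, at a summit 9930 bp from the gene. For hmgs-1, which encodes HMG-CoA synthase, it was 50.2 at 253 bp from the gene. Both summits lay nearest the start of another gene.

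In the stomatin family 2 of the 9 other genes had a thresholded region. For sto-6, which lies beside sto-4, it was the region of the sto-4 run itself, 7576 bp from the gene. For unc-24, a stomatin-like gene needed for normal locomotion, it was a region of signal 75.4 at rank 519, nearest the start of mec-17. mec-2, the stomatin of the touch receptor complex, and unc-1 had strongest signals of 42.9 and 45.4, below the thresholded list. Those of sto-2 and sto-1 were higher, at 65.6 (rank 775) and 64.1 (rank 840), but also below it.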

How the data were processed

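ChIP-seq peak lists of 2 replicates were analysed. The 4 genes, the gene lists and the alternatives were chosen with earlier results of these data known. Per the file headers, each replicate's candidate regions were derived by the authors from its alignments and 1 control, the pooled list from both replicates, and the thresholded list from all 3 by the irreproducible discovery rate, on ce11. The deposited signal value and −log10 q are the authors'; the sources used here do not name the peak caller, aligner or threshold. Thresholded regions were found to hold the 534 top ranks by pooled signal.

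Positions are 1-based. Genes are from Ensembl release 115 (WBcel235), and all regions lay inside its chromosomes. A region belonged to a locus when it overlapped the gene widened by 10 kb. GT/CA runs were perfect alternating stretches of at least 20 bp, end letters included; other gene names at runs are those of the nearest start site. Flank uniqueness and flank G+C were examined after the data were seen. Named genes are the members, genes within 2 kb of a summit and list genes with a thresholded region. Genes at runs of at least 100 bp and the 5 most alike are also named. Genes added after their values were seen are pph-4.1, pph-4.2, mig-32, hmgr-1, hmgs-1, mec-2, unc-1, sto-1 and sto-2. The microRNA genes, kin-14, sipa-1, galt-1, lir-1 and the genes at runs with less unique flanks were added likewise. Run finding and window counts were tested on simulated data. No statistical test was made. Python 3.11.15, pandas 2.3.3, numpy 2.4.6, scipy 1.17.1 and matplotlib 3.10.9 were used.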

Additional observations from a re-analysis of the deposited data

How the results depend on the processing

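All 5 summits lay in regions of both replicates, and in regions among the 534 or the 267 strongest of each. For the weaker spat-3 summit these were the regions of the stronger one, at rank 2 in replicate 4 and rank 3 in replicate 5. The pooled signal that chose the summits was derived from the same replicates. With a reciprocal overlap of 50% there were 4 summits with support in both replicates, since the mvk-1 region of replicate 5 is narrow. With summits within 100 bp there were 3, since the single spat-3 summit of replicate 5 lay 127 and 109 bp from the pooled pair. The number of thresholded regions beyond the 5 summits was 2, and 1 to 2 when a replicate was left out. The 2 found without replicate 5 were not the same, being the second site of ppfr-1 as a single region and the region near cel-mir-2 (rank 453 in replicate 4). Of the 26 pathway and family genes, 4 had a thresholded region, 1 (sor-1) with the summit in the promoter window, 2 (sor-1 and sto-6) in the strongest 267 regions, and 3 to 4 when a replicate was left out. Only sor-1 and sto-6 stayed when either replicate was left out, and the sto-6 region is that of the sto-4 run. smk-1 was lost without replicate 5 and unc-24 without either, while a different stomatin gene entered in each case. Of 20 alternatives, 16 moved a value by no more than 1.5 times. The flank values were also computed with stretches of 50 bases, chosen after seeing the data. Unknown depth limits the precision of every signal. No paired analysis was possible because there is only 1 group.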
